A study of Mus musculus with 3 samples.

Results

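The 7 genes described here encode the receptor of the common gamma chain cytokines: Il2rg, Il2ra, Il2rb, Il15ra, Il7r, Il4ra and Il21r. They were matched by symbol among the 30406 gene identifiers shared by 3 droplet scRNA-seq libraries of mouse thymus, and all 7 were found in each library. The study asked how thymic invariant natural killer T (iNKT) cells differentiate after haploidentical bone marrow transplantation (BMT) with and without graft-versus-host disease (GvHD). After magnetic removal of CD8+ cells, TCRβ+ thymocytes that bound the CD1d tetramer and lacked CD24 and NK1.1 were sorted, so the NK1.1+ end stage of NKT1 cells was not sampled. The C57BL/6 library came from C57BL/6 mice without BMT, labelled 7 weeks old. The hosts of the other libraries were F1 (C57BL/6 x BALB/c) mice given lethal irradiation and then C57BL/6 bone marrow freed of T cells, taken at 16 weeks of age and 9 weeks after BMT. The BM only recipients had the marrow alone and no GvHD, and the BM + Spl recipients also received splenic cells of C57BL/6 mice, after which they had GvHD. Each library pooled several mice and each condition had 1 library, so no test of the condition could be made. Every interval below is a 95% interval that covers counting error only, not the spread between mice. Intervals of summed levels and their ratios do not cover the spread between cells either.

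Receptors of this family pair the common gamma chain, encoded by Il2rg, with a chain that gives the cytokine specificity. IL-2 and IL-15 share the beta chain of Il2rb and each add an alpha chain, Il2ra (CD25) or Il15ra, whereas IL-7, IL-4 and IL-21 use the chains of Il7r, Il4ra and Il21r. The chains signal through JAK1 and JAK3 to STAT proteins, and in the thymus IL-7 and IL-15 are known as survival and maturation signals of iNKT cells, IL-15 above all for NKT1 cells, and IL-2 as a signal of regulatory T cells.

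In the GENCODE vM21 annotation of GRCm38, all 7 are protein-coding genes on 4 chromosomes. Il2ra (chr2:11642807-11693193) and Il15ra (chr2:11705290-11734317) are neighbours on the + strand with 12096 bases between them, and Il4ra (chr7:125552120-125579474) and Il21r (chr7:125603429-125633570) lie on the + strand with 23954 bases between them. Il2rb (chr15:78479256-78495271) and Il7r (chr15:9505788-9530176) are far apart on the - strand, and Il2rg (chrX:101264378-101268255) is also on the - strand. Upstream sequences from RefSeq (GRCm38.p6) were matched for 6 of the 7 genes, all but Il2rb. The 250 bases before the start are shown for Il2ra, the member that differed most between the transplant libraries in NKT1-like cells, and for Il2rg, the chain that every receptor of the family shares. Capitals mark GGGA and CCC with 3 bases between them (an NF-κB type motif) in Il2ra, and TGTGGT (a Runx type motif) followed by CGGAAG (an Ets type motif) in Il2rg.
Il2ra, chr2:11642542-11642791, + strand: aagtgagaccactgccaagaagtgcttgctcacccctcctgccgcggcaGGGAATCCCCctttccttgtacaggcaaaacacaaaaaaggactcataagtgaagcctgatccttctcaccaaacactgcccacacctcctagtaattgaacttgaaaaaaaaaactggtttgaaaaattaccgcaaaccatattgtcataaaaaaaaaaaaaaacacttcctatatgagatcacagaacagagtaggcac
Il2rg, chrX:101268256-101268505, - strand: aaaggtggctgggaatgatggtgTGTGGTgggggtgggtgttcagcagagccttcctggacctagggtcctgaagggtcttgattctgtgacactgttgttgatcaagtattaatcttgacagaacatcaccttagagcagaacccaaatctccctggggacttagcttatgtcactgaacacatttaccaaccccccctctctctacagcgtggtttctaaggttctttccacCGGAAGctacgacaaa
Each motif was searched on both strands. The NF-κB type motif was searched after the Il2ra sequence had been read. It lay 201 bases before the Il2ra start, and 4.77% of 32841 upstream regions of the same length held it. TGTGGT was held by 14.0% of the regions and among the members by Il2rg, 227 bases before the start, and Il21r, 33 bases before. CGGAAG was held by 13.6% and by Il2rg at 16 and Il15ra at 103 bases before the start. For Il15ra it lay in the upstream region from chr2:11705043, and the other region listed for this gene, from chr2:11705462, did not hold it. The STAT type motif TTCNNNGAA was held by 7.02% of the regions and, among the 6 members, by Il7r alone, 142 bases before its start. These matches describe the letters and were not tied to any binding data.

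After filtering by genes and mitochondrial UMIs per cell 4434 C57BL/6, 5970 BM only and 5557 BM + Spl cells remained, with medians of 12086, 4740 and 6495 UMIs. Levels are given as CPM, the UMIs of a gene per 1000000 UMIs summed over a group of cells, and shares of cells with a UMI are given both as found and after each cell was thinned to 2700 UMIs. Between 15 and 959 cells of a library were too shallow to be thinned. The C57BL/6 library stood apart: its table header names Cell Ranger 3.0.2 where the others name 7.0.0, it shared 0 cell barcodes with them (BM only and BM + Spl shared 43), its median of mitochondrial UMIs was 6.47% against 0.687% and 0.511%, and a V beta segment could be called in 19.3% of its cells against 77.3% and 76.6%. The sources name both a 3' and a 5' library kit without saying which library used which. Differences of C57BL/6 from the transplant libraries cannot be told apart from these properties, from the kit, or from host strain, age and irradiation.

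Cells were gated by marker genes, none of which is a member. A cell was NKT1-like where Nkg7, Klrd1, Klrk1, Xcl1, Tbx21, Gzmb, Slamf7 and Cxcr3 held at least 80% of its UMIs over the NKT1 and NKT2 lists, NKT2-like where Zbtb16, Il17rb, Il4 and Il13 did, and mixed in between. NKT17-like, cycling-like, Foxp3+, Cd8a+Cd8b1+, pDC-like and B-like cells were set aside before that, and cells without enough markers stayed ungated. NKT1-like cells numbered 1113, 2675 and 849 in C57BL/6, BM only and BM + Spl, NKT2-like cells 1500, 715 and 1235, and NKT17-like cells 316, 540 and 399. Foxp3+ cells numbered 2, 598 and 664, so this gate is described for the transplant libraries only. The sort was not pure in these. Trbv1, Trbv13 and Trbv29 were taken as iNKT segments, and UMIs of Trbv12-2 were counted together with those of Trbv13-2. Of cells with a V beta call, an iNKT segment was carried by 29.2% and 27.8% of Foxp3+ cells in BM only and BM + Spl. Zbtb16, the iNKT lineage factor, was detected in at most 2.60% of thinned Foxp3+ cells. In NKT1-like cells the iNKT share was 91.5% in C57BL/6, 91.5% in BM only and 38.6% in BM + Spl, which goes against the label for most BM + Spl cells of that gate. In NKT17-like cells it was 90%, 66.3% and 39.6%, so there too the label did not hold for most called cells of BM + Spl. These segments are not particular to iNKT cells, since 38.2% and 36.2% of Cd8a+Cd8b1+ cells with a call carried one as well. A split by V beta therefore does not remove all other T cells. In BM + Spl the shares of NKT1-like (38.6%) and NKT17-like cells (39.6%) were close to that of Cd8a+Cd8b1+ cells (36.2%). The split there cannot show that the cells it keeps were iNKT cells. For NKT1-like cells the members are given both for the whole gate and for cells with an iNKT V beta segment, and in C57BL/6 the latter were 97 cells.

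Il2rg, the chain shared by the whole family, was found in every gate. In NKT1-like cells it stood at 243 CPM in C57BL/6, 862 in BM only and 919 in BM + Spl, and in NKT2-like cells at 182, 651 and 663. In the transplant libraries the gates of T cells ranged from 488 CPM in cycling-like cells of BM + Spl to 919 in NKT1-like cells of BM + Spl, while B-like cells (381 and 411) and pDC-like cells (250 and 273) were lower. The 2 transplant libraries lay close to each other in every gate, with log2 ratios of BM + Spl over BM only between -0.10 and 0.21. NKT1-like cells were first in the order in all 3 libraries, apart from the next gate in C57BL/6 only, since Foxp3+ cells of BM only (837) and NKT17-like cells of BM + Spl (882) were within counting error of them. C57BL/6 stood apart in every gate it shares with BM only, which was higher by 1.58 to 2.0 on the log2 scale in all 6. The share of thinned NKT1-like cells with an Il2rg UMI was 47.5%, 88.2% and 88.4% (80.3%, 94.0% and 95.9% unthinned). In NKT1-like cells with an iNKT V beta segment the level was 223, 865 and 896 CPM.

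**Figure D1:**
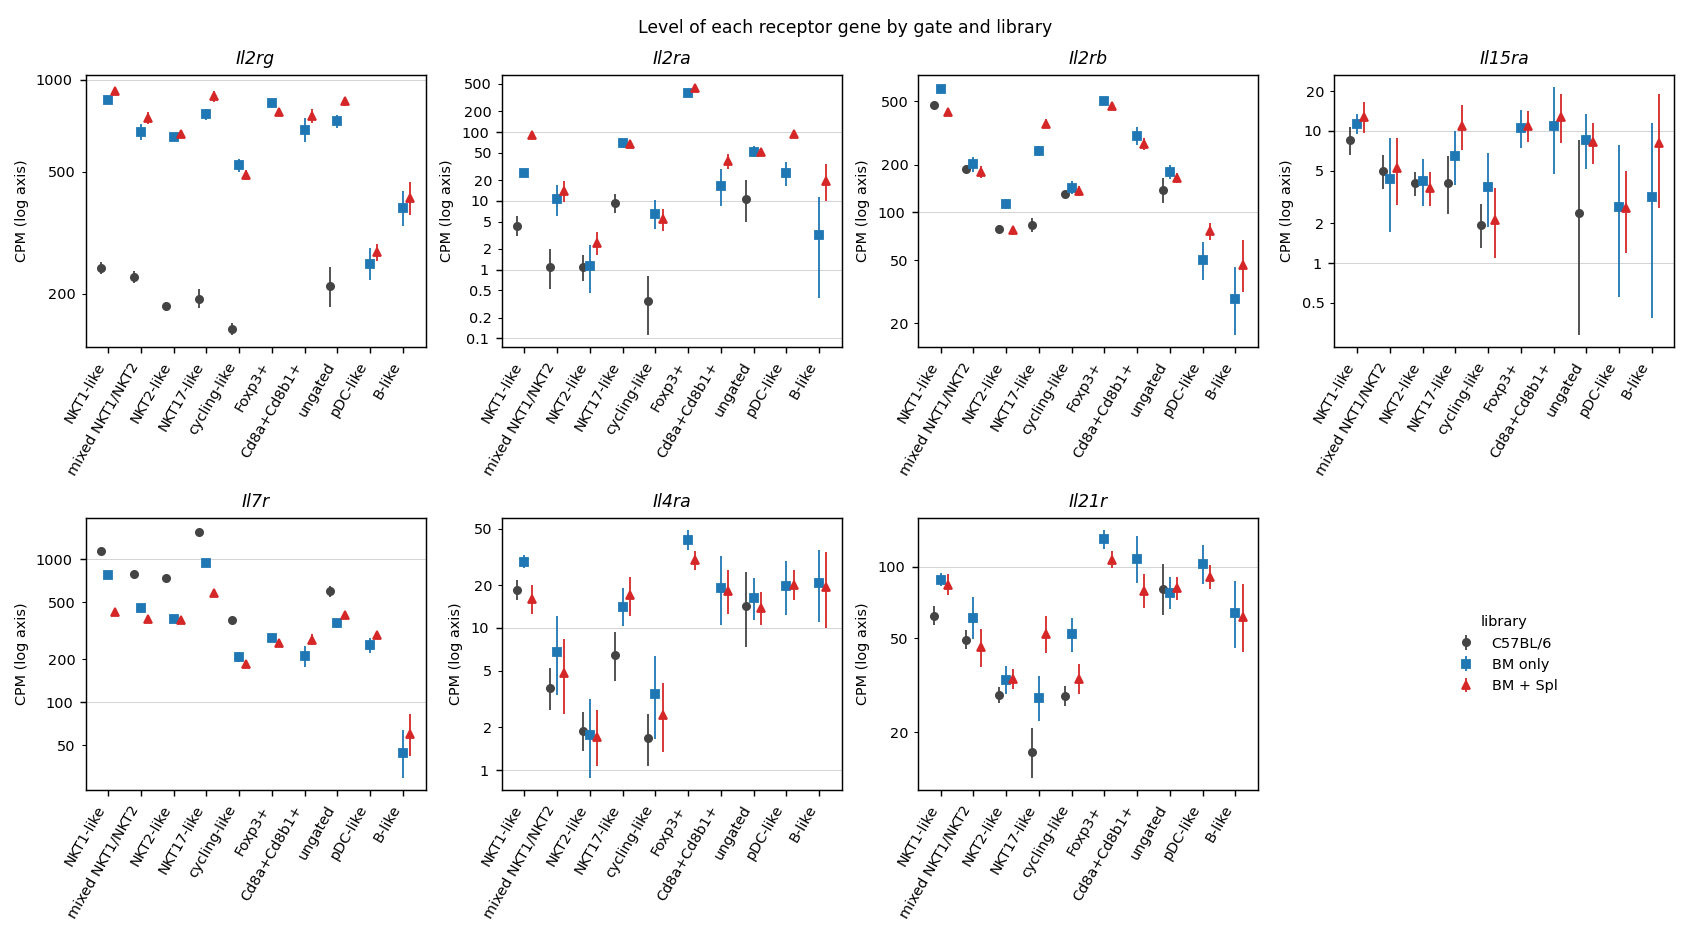
Level of each of the 7 receptor genes (CPM, log axis) in each gate (x axis) and library and points are the summed UMIs of a gate and bars the 95% Poisson interval (counting error only). Il2rg of C57BL/6 lies below both transplant libraries in every gate, Il2ra is highest in Foxp3+ cells, Il2rb in NKT1-like or Foxp3+ cells, and Il7r in NKT17-like cells.

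Il2ra, the high-affinity IL-2 receptor alpha chain, was a gene of Foxp3+ cells. It stood at 371 CPM (352 to 391) in Foxp3+ cells of BM only and at 435 (417 to 453) in BM + Spl, and 65.6% and 64.8% of all Il2ra UMIs of these libraries were in this gate, which held 10.0% and 12.0% of the cells. The share of thinned Foxp3+ cells with a UMI was 47.6% and 55.5% (61.0% and 75.3% unthinned), against 0.759% and 0.250% of NKT2-like cells, whose median depths of 8414 and 9391 UMIs exceeded those of Foxp3+ cells (4700 and 5974). In NKT2-like cells the level was 1.08 CPM (24 UMIs) in C57BL/6, 1.12 (7 UMIs) in BM only and 2.46 (30 UMIs) in BM + Spl, the lowest gate of both transplant libraries. In BM only, B-like cells (3.19 CPM, 2 UMIs) were within counting error of them.

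In NKT1-like cells Il2ra differed among all 3 libraries. It stood at 4.37 CPM in C57BL/6 (3.03 to 6.11, 34 UMIs), 25.0 in BM only (22.2 to 28.0, 300 UMIs) and 90.2 in BM + Spl (81.6 to 99.4, 406 UMIs). BM + Spl was thus 3.61-fold higher than BM only (log2 ratio 1.85, 1.63 to 2.07), and the intervals of the 3 libraries did not overlap. The share of thinned cells with a UMI was 0.991%, 4.79% and 15.8% (2.25%, 7.51% and 22.1% unthinned). The same order held in cells with an iNKT V beta segment, at 2.64 (2 UMIs, 0.320 to 9.55), 24.5 and 87.8 CPM. The log2 ratio of BM + Spl over BM only in these cells was 1.84 (1.52 to 2.16). As this split cannot set iNKT cells apart from other T cells in BM + Spl, the ratio does not show a difference within iNKT cells. This order held as well in cells with no UMI of the regulatory T cell markers Foxp3, Ikzf2, Ikzf4, Ctla4 and Gpr83, at 4.26, 19.5 and 55.1 CPM.

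Foxp3 itself was nearly absent from NKT1-like cells, with 0, 8 and 5 UMIs. This is largely fixed by the gate order, as cells with Foxp3 and enough regulatory T cell marker UMIs were gated as Foxp3+ first. The summed level of the 5 regulatory T cell markers in NKT1-like cells was 191, 68.0 and 346 CPM. It was 1709 and 1595 CPM in Foxp3+ cells, which were chosen by these markers. Of the sum in NKT1-like cells Ikzf2 alone held 189, 52.2 and 132 CPM, nearly all of it in C57BL/6. In C57BL/6, 569 of the 1113 NKT1-like cells held a UMI of these markers, and the cells with no such UMI above leave them out. Among NKT1-like cells deep enough to be thinned, 1865 of 2273 in BM only and 298 of 765 in BM + Spl had no such UMI. This split therefore compares unlike parts of the gate in the transplant libraries. The member of that list that was furthest above BM only was Ctla4, an inhibitory receptor of activated and regulatory T cells, at 0.386, 13.3 and 190 CPM. Among thinned NKT1-like cells of BM + Spl a Ctla4 UMI was found in 41.3% (32.5 to 50.6) of those with an Il2ra UMI and in 32.0% (28.4 to 35.7) of those without, and in BM only in 6.42% (2.62 to 12.8) and 2.03% (1.48 to 2.72). Ctla4 was therefore higher in BM + Spl in cells with and without Il2ra.

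**Figure D2:**
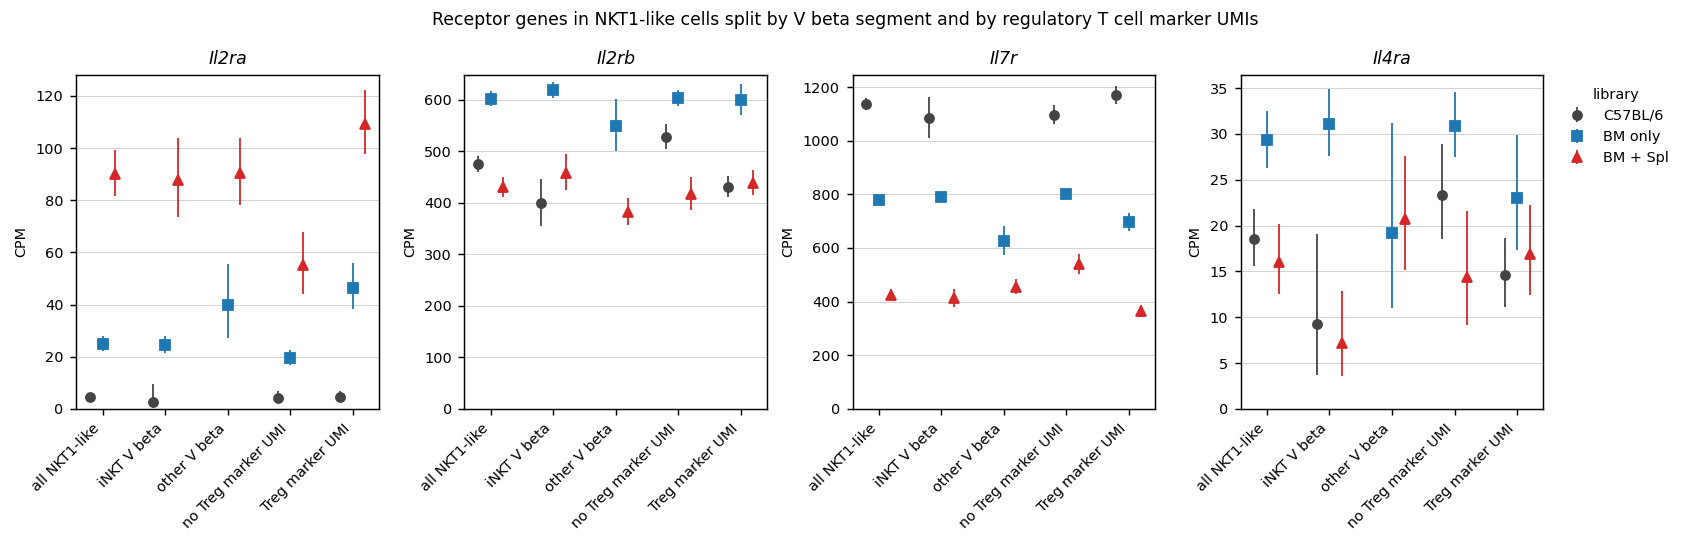
Il2ra, Il2rb, Il7r and Il4ra (CPM) in NKT1-like cells of each library, for all cells and for cells split by V beta segment and by UMIs of 5 regulatory T cell (Treg) markers, and bars are 95% Poisson intervals. Il2ra of BM + Spl (55.1 to 109 CPM) lies above BM only (19.5 to 46.4 CPM) in every split, and Il7r of BM + Spl lies below BM only in every split.

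In NKT17-like cells Il2ra stood at 9.32 CPM in C57BL/6, 68.1 in BM only and 66.5 in BM + Spl, so the transplant libraries were within counting error of each other (log2 ratio -0.04, -0.34 to 0.26) and both were above C57BL/6. Ungated cells behaved likewise, at 10.7, 52.0 and 51.3 CPM. In mixed cells the levels were 1.08, 10.5 and 14.0 CPM and in cycling-like cells 0.348, 6.52 and 5.44 CPM, each on fewer than 100 UMIs over the transplant libraries. In Cd8a+Cd8b1+ cells 12 UMIs in BM only and 68 in BM + Spl gave 16.4 and 37.6 CPM. The order of gates after Foxp3+ cells therefore changed between the transplant libraries: NKT17-like cells were next in BM only, and pDC-like and NKT1-like cells, within counting error of each other, were next in BM + Spl.

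The pDC-like gate, cells with transcripts of plasmacytoid dendritic cells, held transcripts of T cells too. There Il2ra stood at 25.0 CPM in BM only and 92.7 in BM + Spl (log2 ratio 1.89, 1.33 to 2.50), and Il2rb at 50.03 and 76.0 CPM (0.60, 0.18 to 1.05). In the same cells the summed regulatory T cell markers were 110 and 232 CPM. In the pDC-like cells with no such UMI (131 and 284 cells) Il2ra was at 8.96 CPM (7 UMIs) and 3.08 CPM (6 UMIs) and Il2rb at 26.9 CPM (21 UMIs) and 16.5 CPM (32 UMIs), and both ratios turned below 0, at -1.54 (-3.39 to 0.26) and -0.71 (-1.55 to 0.16). In the 121 pDC-like cells of BM + Spl with a regulatory T cell UMI Il2ra was at 211 CPM and Il2rb at 154 CPM. As a mean of single-cell CPM the Il2rb ratio was 0.03. The other members of this gate, Il2rg, Il7r and Il21r, had log2 ratios between -0.18 and 0.24.

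Il2rb (CD122), the beta chain for IL-2 and IL-15, was highest in NKT1-like and Foxp3+ cells. In NKT1-like cells it stood at 475 CPM in C57BL/6 (460 to 490), 602 in BM only (588 to 616) and 431 in BM + Spl (412 to 451), and in NKT2-like cells at 79.1, 113 and 77.1 CPM. NKT1-like cells exceeded NKT2-like cells by 2.59, 2.41 and 2.48 on the log2 scale. With an iNKT V beta segment NKT1-like cells were at 399, 619 and 459 CPM. In Foxp3+ cells the level was 503 CPM in BM only and 466 in BM + Spl, below NKT1-like cells in BM only and above them in BM + Spl. The share of thinned NKT1-like cells with a UMI was 67.0%, 74.2% and 64.4% (90.1%, 84.0% and 78.7% unthinned), against 6.17% and 7.81% of the B-like cells of BM only and BM + Spl (median depths 6304 and 8361 UMIs, against 4306 and 4402 in NKT1-like cells).

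BM + Spl was lower than BM only for Il2rb in NKT1-like cells (log2 ratio -0.48, -0.56 to -0.41) and in NKT2-like cells (-0.55, -0.69 to -0.41), in both by less than 1.5-fold. NKT17-like cells went the other way, at 83.6, 243 and 361 CPM in C57BL/6, BM only and BM + Spl (BM + Spl over BM only 0.57, 0.43 to 0.71, 1.48-fold). Within that gate the levels of BM only and BM + Spl were 213 and 250 CPM in cells with an iNKT V beta (263 and 127 cells). They were 196 and 299 CPM in cells with another V beta (134 and 194 cells). Both kinds lay below the whole gate in each library, and cells without a V beta call were in neither kind. Other transcripts of this gate moved as well: over C57BL/6, BM only and BM + Spl the summed NKT1 markers were at 111, 668 and 1086 CPM, Zbtb16 at 297, 159 and 55.6 CPM and the summed NKT17 markers at 981, 2358 and 1705 CPM. Their part in the differences of NKT17-like cells was not tested. Over all cells Il2rb was 162, 345 and 208 CPM (log2 ratio of BM + Spl over BM only -0.73). A description chosen after these values were seen set the BM only level of each gate at the BM + Spl share of UMIs of that gate, which gave 237 CPM. In BM only and BM + Spl, NKT1-like cells made up 44.8% and 15.3% of the cells and carried 60.3% and 21.6% of the Il2rb UMIs.

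Il15ra, the alpha chain that binds IL-15 and presents it to the beta and gamma chains, was sparse, with 249, 274 and 285 UMIs in C57BL/6, BM only and BM + Spl. NKT1-like cells held 8.48 CPM (66 UMIs), 11.3 CPM (136 UMIs) and 12.7 CPM (57 UMIs), and NKT2-like cells 4.01, 4.17 and 3.68 CPM. NKT1-like cells were thus higher by 1.08, 1.44 and 1.78 on the log2 scale. In the transplant libraries Foxp3+ cells (10.5 and 10.9 CPM) and Cd8a+Cd8b1+ cells (10.9 and 12.7 CPM) were within counting error of NKT1-like cells. BM + Spl and BM only did not differ beyond counting error in any gate, and the interval of their ratio in NKT1-like cells ran from -0.31 to 0.62 (log2). In NKT1-like cells with an iNKT V beta segment the level was 10.6, 11.1 and 10.5 CPM (8, 103 and 16 UMIs).

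Il7r, the alpha chain for IL-7, had a different order, with NKT17-like cells above all other gates in every library. NKT17-like cells stood at 1560 CPM in C57BL/6, 938 in BM only and 581 in BM + Spl, and NKT1-like cells followed at 1138, 779 and 426 CPM. NKT2-like cells were at 740, 386 and 375 CPM and cycling-like cells, the lowest gate of T cells in each library, at 380, 207 and 187 CPM. In BM only, Cd8a+Cd8b1+ cells (210 CPM) were within counting error of cycling-like cells. Foxp3+ cells (284 and 262 CPM) lay within counting error of pDC-like cells (251) and above Cd8a+Cd8b1+ cells (210) in BM only. In BM + Spl they were within counting error of Cd8a+Cd8b1+ cells (274.5) and below pDC-like cells (297). In B-like cells, whose mature stage lacks this receptor, a UMI was found in 2.47% and 10.9% of thinned cells of BM only and BM + Spl, against 76.8% and 55.0% of NKT1-like cells (85.5% and 68.9% unthinned).

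Il7r was lower in BM + Spl than in BM only in NKT1-like cells (log2 ratio -0.87, -0.94 to -0.80, 1.83-fold) and in NKT17-like cells (-0.69, -0.78 to -0.60, 1.61-fold), and within counting error in NKT2-like cells (-0.04, -0.11 to 0.03). The excess of NKT1-like over NKT2-like cells, 0.62 in C57BL/6 and 1.01 in BM only, was 0.19 (log2) in BM + Spl, where NKT1-like, ungated, mixed and NKT2-like cells formed a run in which each was within counting error of the next, although NKT1-like and NKT2-like cells themselves were apart (0.11 to 0.26). The C57BL/6 value was 0.48 in thinned cells, 0.55 in iNKT V beta cells and 0.56 without mitochondrial and ribosomal genes in the total, each under 1.5-fold. In NKT1-like cells with an iNKT V beta the levels were 1085, 790 and 413 CPM, as far apart as in the whole gate. In BM + Spl this split cannot set iNKT cells apart from other T cells. In NKT1-like cells with no regulatory T cell marker UMI the levels were 1097, 800 and 539 CPM. Their log2 ratio of BM + Spl over BM only was -0.57 (-0.67 to -0.47), which is under 1.5-fold. The NKT17-like ratio was -0.54 in thinned cells and -0.57 as a mean of single-cell CPM, both under 1.5-fold. In NKT17-like cells BM + Spl was lower both with an iNKT V beta (942 and 618 CPM) and with another (962 and 593 CPM). BM only was below C57BL/6 in all 6 gates compared, with log2 ratios from -0.94 to -0.55, the opposite direction to Il2rg.

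Il4ra, the chain that binds IL-4, was lowest in NKT2-like and cycling-like cells. NKT2 cells are known as producers of IL-4. NKT1-like cells stood at 18.5 CPM (144 UMIs) in C57BL/6, 29.3 (352 UMIs) in BM only and 16.0 (72 UMIs) in BM + Spl, and NKT2-like cells at 1.89 (42 UMIs), 1.76 (11 UMIs) and 1.72 CPM (21 UMIs). The log2 ratios were 3.29 (2.79 to 3.82), 4.05 (3.20 to 5.07) and 3.22 (2.50 to 3.99). Foxp3+ cells were highest in both transplant libraries, at 41.5 and 29.9 CPM, a log2 ratio of BM + Spl over BM only of -0.47 (-0.80 to -0.14). In NKT1-like cells BM + Spl was 1.83-fold lower than BM only (log2 ratio -0.87, -1.26 to -0.50). In the iNKT V beta cells of this gate the levels were 31.1 and 7.21 CPM (log2 ratio -2.11, -3.13 to -1.25), and in the cells with another V beta they were 19.2 and 20.7 CPM. In C57BL/6 the 97 NKT1-like cells with an iNKT V beta call were at 9.25 CPM (7 UMIs).

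Il21r, the chain that binds IL-21, stood at 62.2 CPM in NKT1-like cells of C57BL/6, 88.4 in BM only and 83.9 in BM + Spl, and at 28.7, 33.3 and 33.6 CPM in NKT2-like cells. Foxp3+ cells were highest among the transplant gates, at 131 and 107 CPM, though in BM only Cd8a+Cd8b1+ cells (108 CPM) were within counting error of them. NKT17-like cells were the lowest gate in C57BL/6 (16.5 CPM, 69 UMIs) and BM only (28.0 CPM, 87 UMIs), where NKT2-like cells of BM only were within counting error of them. In BM + Spl NKT17-like cells stood at 52.0 CPM (129 UMIs), 1.86-fold above BM only (log2 ratio 0.89, 0.49 to 1.30). Within the NKT17-like gate the levels in BM only and BM + Spl were 23.6 and 37.3 CPM in cells with an iNKT V beta and 30.1 and 64.2 CPM in cells with another. In NKT1-like cells with an iNKT V beta segment the level was 64.8, 91.9 and 81.9 CPM over the 3 libraries. Cycling-like cells went the other way from NKT17-like cells, at 51.8 CPM in BM only and 33.7 in BM + Spl (-0.62, -0.94 to -0.30). That value was -0.57 under doubled marker minimums, -0.56 in iNKT V beta cells and -0.18 in cells with no regulatory T cell marker UMI, each under 1.5-fold. In cycling-like cells the summed NKT1 markers were at 522 CPM in BM only and 153 in BM + Spl, and Gzmb, a cytotoxic granule protease, at 94.0 and 10.0 CPM. Their part in the Il21r value was not tested.

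Between NKT1-like and NKT2-like cells, a member was counted as higher or lower where it was past 1.5-fold and held at least 100 UMIs over both gates. In C57BL/6 5 of 6 members were higher, in BM only 6 of 7 and in BM + Spl 4 of 6, and 0 were lower in each. The C57BL/6 count was 2 in thinned cells and 2 in iNKT V beta cells, where fewer members held 100 UMIs. Of all genes with as many UMIs, 27.1%, 29.7% and 28.5% were past 1.5-fold either way, with medians of 0.03, -0.03 and 0.03, where the medians of the members were 1.10, 1.44 and 1.55 (log2). Il2rg was the member compared in all 3 libraries that was under 1.5-fold in each, at 0.42, 0.40 and 0.47, and in BM + Spl Il7r joined it. In NKT1-like cells the receptor genes of IL-2, IL-15, IL-4 and IL-21 were all at higher levels than in NKT2-like cells in every library, with Il2ra of C57BL/6 (2.02, 1.22 to 2.83) and Il4ra of BM + Spl resting on fewer than 100 UMIs. Of the cells with a V beta call in BM + Spl, 38.6% of NKT1-like and 94.8% of NKT2-like cells carried an iNKT segment. The ratios of that library therefore also compare gates of unlike make-up.

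Between BM + Spl and BM only, the NKT1-like gate had Il2ra higher and Il4ra and Il7r lower of 7 members compared, where 19.6% of genes were past 1.5-fold. NKT17-like cells had 1 higher (Il21r) and 1 lower (Il7r) of 5 (11.2% of genes), pDC-like cells 2 higher of 5 (9.24%) and cycling-like cells 1 lower of 4 (3.62%). No member passed 1.5-fold in Foxp3+ (6 compared, 6.79% of genes), NKT2-like (4, 2.46%), mixed (4, 4.27%), ungated (5, 4.47%), Cd8a+Cd8b1+ (4, 8.0%) or B-like cells (1, 12.4%). In Foxp3+ cells the ratios ran from -0.47 for Il4ra to 0.23 for Il2ra (0.13 to 0.32). Over all cells Il2rb, Il4ra and Il7r were lower, 3 of 7 against 12.6% of genes. With the BM only levels set at the BM + Spl gate shares, as above, Il4ra moved from 19.4 to 14.8 CPM (BM + Spl 11.6) and Il7r from 527 to 397 CPM (BM + Spl 338), whereas Il2ra moved from 60.3 to 62.7 CPM (BM + Spl 84.2). A lower level over all cells mixes fewer cells of a gate with a lower level within it. Levels within gates set the numbers of cells aside, but not the make-up of a gate. Of NKT1-like cells with a V beta call, 91.5% in BM only and 38.6% in BM + Spl carried an iNKT segment.

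**Figure D3:**
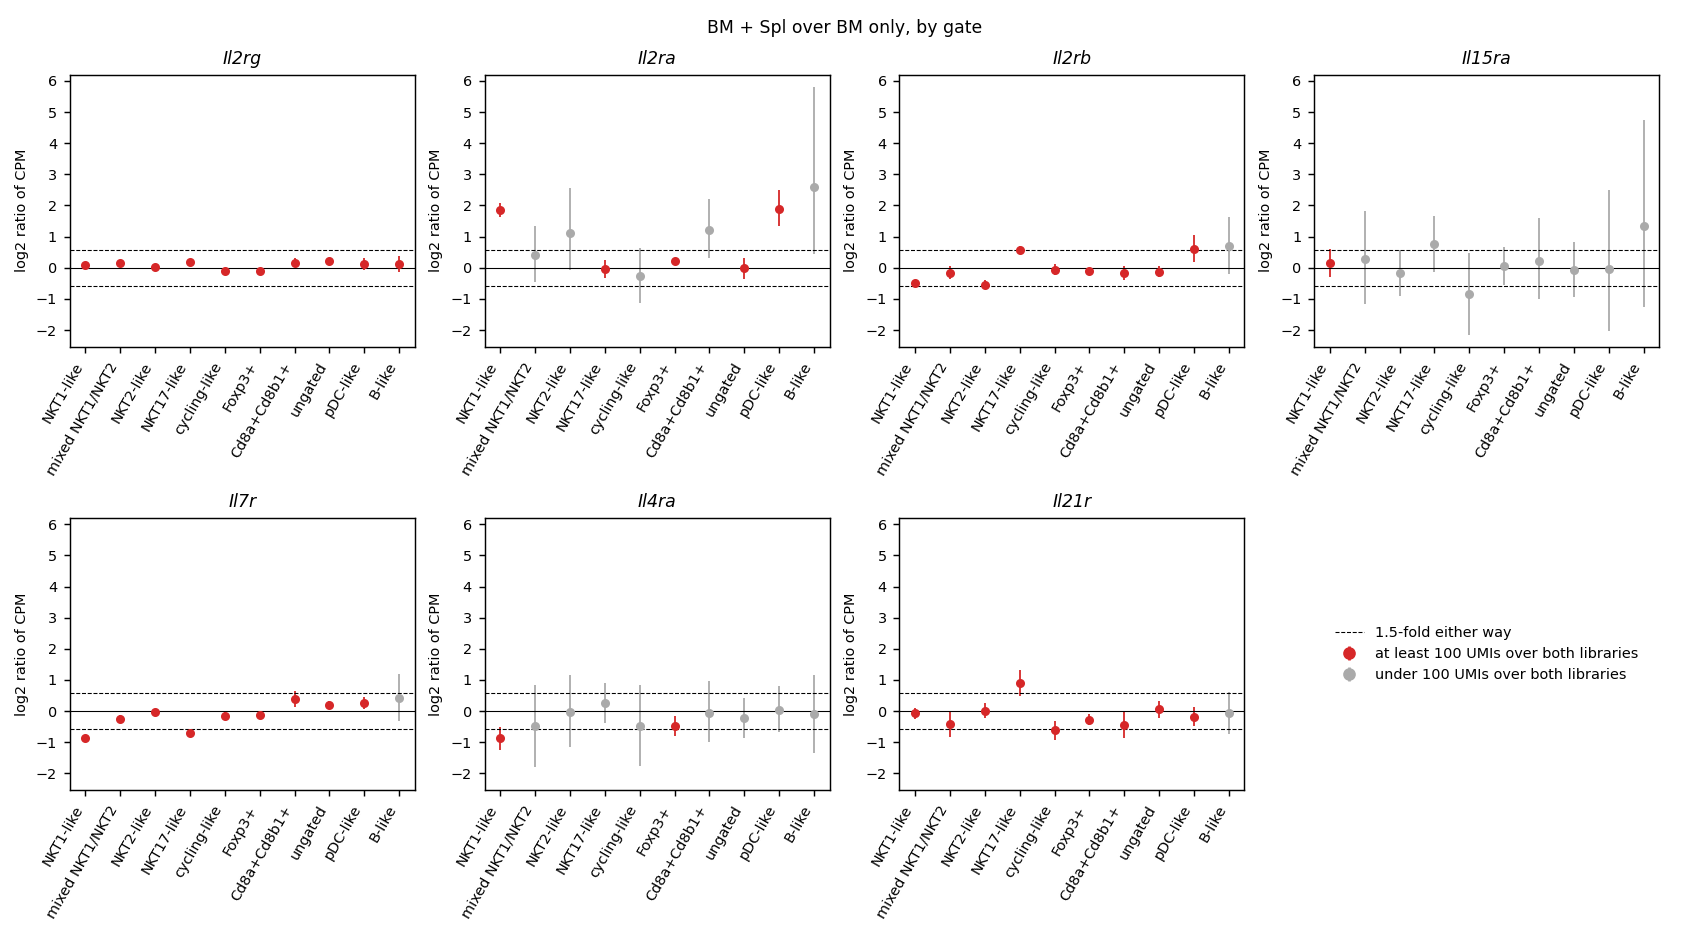
Log2 ratio of BM + Spl over BM only for each receptor gene (panels) in each gate, with 95% counting intervals. Grey points hold fewer than 100 UMIs and dashed lines mark 1.5-fold. Il2ra in NKT1-like cells lies at 1.85 and Il7r at -0.87, while Il2rg lies between -0.10 and 0.21 in every gate.

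Between BM only and C57BL/6, 37.1% (cycling-like), 40.2% (NKT17-like), 43.0% (NKT1-like), 39.2% (mixed), 37.9% (NKT2-like) and 42.2% (ungated) of all genes were past 1.5-fold, with medians between 0.08 and 0.18. Members past that level numbered 3 of 4, 5 of 5, 3 of 7, 2 of 4, 2 of 5 and 3 of 5. Il2rg was among those higher and Il7r, except in NKT1-like cells (-0.55), among those lower. Il2ra was higher in NKT1-like (2.51), NKT17-like (2.87) and ungated cells (2.28), the 3 gates with enough UMIs, and in NKT2-like cells it was 0.05 on fewer than 100 UMIs. Il2rb was past 1.5-fold in NKT17-like cells alone (1.54), and Il4ra was compared in NKT1-like cells alone (0.66).

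Joint detection of the chains in the same cell was compared in thinned cells, over whole gates unless stated. UMIs of both Il2rb and Il2rg, the pair that binds IL-2 or IL-15 with intermediate affinity, were found in 32.4%, 66.2% and 56.9% of NKT1-like cells of C57BL/6, BM only and BM + Spl and in 7.21%, 19.3% and 13.7% of NKT2-like cells. The product of the single shares gave 31.8%, 65.5% and 56.95%, and 6.63%, 18.5% and 13.9%. Il2rg alone was found in 47.48% and 88.25% of NKT1-like cells of C57BL/6 and BM only, a difference with the limits of C57BL/6 given above. All chains of the high-affinity IL-2 receptor (Il2ra, Il2rb and Il2rg) were found together in 33.7% (29.6 to 38.0) and 36.6% (32.7 to 40.6) of Foxp3+ cells of BM only and BM + Spl, where the product of the single shares gave 29.7% and 34.3%. In NKT1-like cells they were found together in 0.0901%, 3.61% and 8.50%, where the product of the single shares gave 0.315%, 3.14% and 9.01%. Among NKT1-like cells with an iNKT V beta segment they were found together in 0 of 97 (interval up to 3.73%), 3.60% and 8.24%. They were found together in NKT17-like cells in 0.633%, 5.81% and 7.41% and in NKT2-like cells in 0.134%, 0.152% and 0.0833%. Il7r and Il2rg were found together in 41.5%, 68.2% and 49.5% of NKT1-like cells and in 39.2%, 73.2% and 60.3% of NKT17-like cells. The product of the single shares gave 40.8%, 67.8% and 48.6%, and 38.3%, 73.1% and 59.7%. In Foxp3+ cells, Il7r was detected in 48.8% and 50.1% of those with an Il2ra UMI and in 45.7% and 42.0% of those without, with overlapping intervals.

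**Figure D4:**
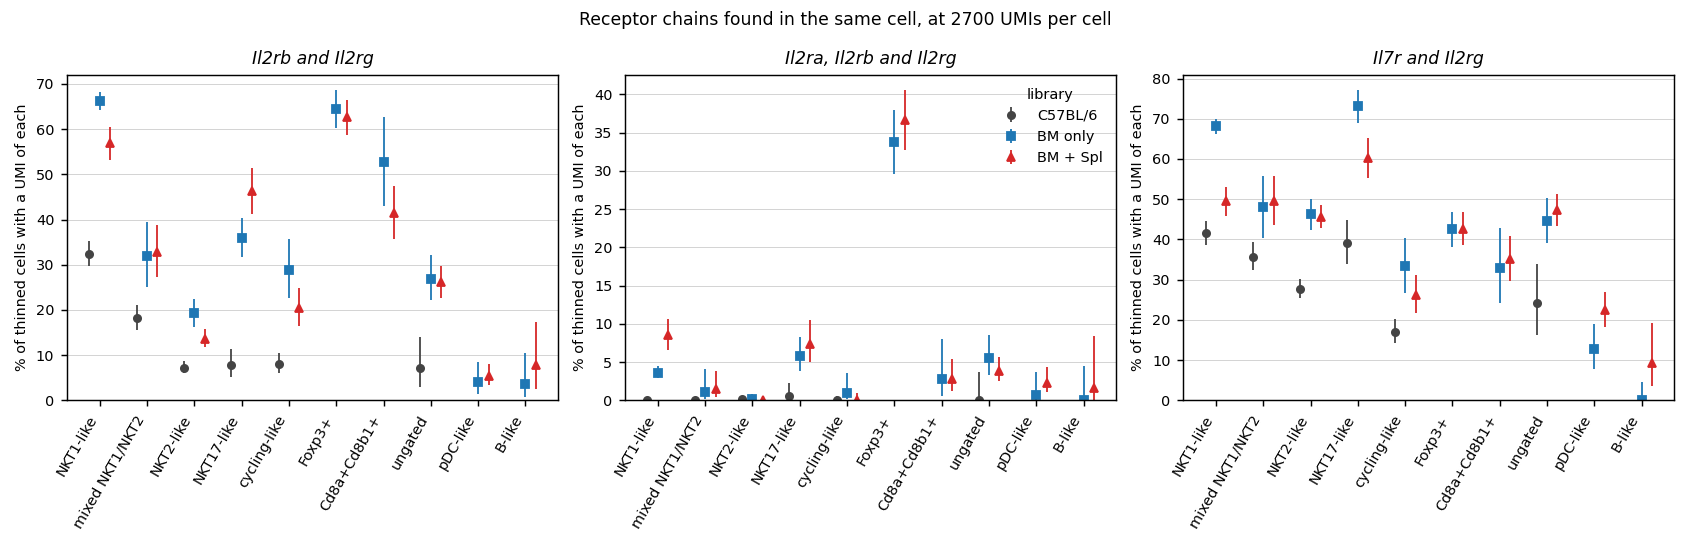
Percent of cells, thinned to 2700 UMIs, with UMIs of every named chain in the same cell, by gate and library, with 95% exact binomial intervals. The high-affinity IL-2 receptor chains are found together in 33.7% and 36.6% of Foxp3+ cells, and in at most 8.50% of NKT1-like cells.

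The partners of these chains were read from a list of 24 genes of the pathway. Of the other receptor chains on the list, Crlf2, a chain of the TSLP receptor, stood at 100 CPM in C57BL/6, 136 in BM only and 143 in BM + Spl over all cells. It was highest in Foxp3+ cells (227 and 211 CPM) and in NKT1-like cells of BM + Spl it was at 189 CPM, against 131 in BM only. Il9r, the IL-9 receptor chain, was highest in B-like cells (113 and 121 CPM) and was lower in Foxp3+ cells of BM + Spl (5.92 CPM) than of BM only (22.7 CPM, log2 ratio -1.94). Il13ra1, which pairs with the IL-4 receptor chain, had 3, 51 and 29 UMIs in all, and 0, 0 and 1 of them were in NKT2-like cells.

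Of the ligands, transcripts of IL-7, IL-9 and TSLP were near or at 0 in these sorted cells, with 2, 2 and 11 UMIs of Il7, 0 in each library of Il9 and 3, 4 and 6 of Tslp. Il15 had 13, 50 and 73 UMIs. Il2 had 222, 165 and 1105 UMIs, and was higher in BM + Spl than in BM only in NKT1-like cells (59.1 against 4.58 CPM, log2 ratio 3.69), NKT17-like cells (182 against 12.5 CPM, 3.86) and NKT2-like cells (18.7 against 2.24 CPM, 3.06). The gates in which Il2 was higher include NKT2-like cells, where Il2ra was at 2.46 CPM or less. A link between the levels of Il2 and Il2ra was not tested. Il21 over all cells was at 3.98, 3.91 and 7.28 CPM, and in NKT1-like cells it had 3, 1 and 60 UMIs. Il4 and Il13 are markers of the NKT2 gate, so their levels between NKT1-like and NKT2-like cells are given by the gate. Il4 over all cells was 71.1 CPM in BM + Spl and 43.9 in BM only (0.69).

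Of the signalling genes, in NKT1-like cells Stat5a (35.8 against 17.2 CPM, log2 ratio 1.05) and Stat5b (70.6 against 34.5 CPM, 1.04), which carry the IL-2, IL-7 and IL-15 signal, were higher in BM + Spl than in BM only, as was Stat3 (147 against 96.9 CPM, 0.60). So were Cish (143 against 46.4 CPM, 1.62) and Socs2 (53.7 against 24.7 CPM, 1.12), feedback inhibitors that STAT5 induces. In all, 6 of the 16 genes of the list with at least 100 UMIs were higher in this gate and 1, Il4, was lower (-0.81), where 19.6% of all genes were past 1.5-fold. Il4 is on the NKT2 list, whose share of UMIs the NKT1-like gate limits, so its value depends on the gate. The iNKT share of this gate was 91.5% in BM only and 38.6% in BM + Spl. The values were also read in its iNKT V beta cells, a split that does not make the cells of both libraries alike, as given above. There the ratios were 0.79 for Stat5a, 0.83 for Stat5b, 0.59 for Stat3, 1.27 for Cish and 0.82 for Socs2, and Il2 was at 40.0 against 3.86 CPM (97 UMIs in all). In cells with no regulatory T cell marker UMI the ratios were 0.77, 0.68, 0.31, 1.67 and 1.07, of which Stat3 is under 1.5-fold, and 3.11 for Il2. There Il4 was at 0.18 (-0.35 to 0.67). In NKT17-like cells Cish (144 against 54.3 CPM, 1.41), the survival gene Bcl2 (76.95 against 42.8 CPM, 0.85), Il2 and Il4 (0.89) were higher of 16 and Socs3, a feedback inhibitor of STAT3 signals, was lower (52.4 against 171 CPM, -1.71). Of all genes in that gate, 11.2% were past 1.5-fold. In Foxp3+ cells Bcl2 was higher (28.7 against 15.9 CPM, 0.85) and Il9r lower of 15 (6.79% of all genes), and Cish was at 214 CPM in BM only and 209 in BM + Spl.

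For the other gates, the genes of the list past 1.5-fold between the transplant libraries are given with the share of all genes past it. They were Stat5a (-1.04), Cish (1.32), Socs2 (1.53) and Socs3 (0.81) of 13 in pDC-like cells (9.24% of all genes). In Cd8a+Cd8b1+ cells they were Stat5a (-0.59) and Pim1 (-0.62) of 13 (8.0%). They were Il13 (-0.95) of 14 in cycling-like (3.62%) and Il13 (0.65) of 13 in mixed cells (4.27%). Il13 is on the NKT2 list, so its value in mixed cells depends on the gate. In ungated cells they were Socs2 (1.22) and Bcl2 (0.62) of 14 (4.47%), in NKT2-like cells Il2 of 16 (2.46%), and in B-like cells 0 of 6 (12.4%). Over all cells Il2 (2.43), Il4 (0.69) and Il21 (0.90) were higher and Socs3 (-0.95) lower of 20 (12.6% of all genes).

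Between NKT1-like and NKT2-like cells, 11 of 18, 9 of 16 and 13 of 18 genes of the list were higher in C57BL/6, BM only and BM + Spl and 3, 4 and 2 were lower, with medians of 0.73, 0.66 and 0.94. Of all genes, 27.1%, 29.7% and 28.5% were past 1.5-fold either way. The genes of the list that were lower include Il4 and Il13 in each library, whose direction the gate fixes. Without both, the counts were 11 of 16, 9 of 14 and 13 of 16 higher, with Il21 lower in C57BL/6, Stat5a and Stat5b lower in BM only, 0 lower in BM + Spl and medians of 0.76, 0.83 and 1.06. Socs2 stood at 20.8, 24.7 and 53.7 CPM in NKT1-like cells and at 0.450, 0.320 and 0.818 CPM in NKT2-like cells. Cish was at 31.0, 46.4 and 143 CPM against 5.63, 7.21 and 9.82 CPM, and Bcl2, the survival gene, at 321, 147 and 131 CPM against 57.6, 33.0 and 29.5 CPM. Socs1 and the kinase gene Pim1 were higher in each library too, by 1.61, 2.09 and 1.76 and by 1.88, 1.64 and 1.72 (log2). Jak1, which binds the specific chains, was higher by 0.74, 0.93 and 0.67. Stat5a (-0.81) and Stat5b (-1.22) were lower in NKT1-like cells of BM only, where NKT2-like cells were at 30.3 and 80.3 CPM.

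The genes most like each member across the 26 sums of a gate in a library, among 9913 genes with at least 500 UMIs, were named by Pearson's r of log2(CPM + 1). The sums share libraries and differ in depth, and r is a description. Il2ra was most like Myo3b, Sntb1 (both 0.92) and Cish (0.91), and Il15ra, on 808 UMIs, most like Il16 (0.91), Socs1 (0.90) and Dnaja4 (0.87). Il2rb was most like Gdpd5 (0.92), Ctla2a and Gm19585 (both 0.91), Il2rg most like Zgpat, Pde4d (both 0.96) and Ndfip1 (0.95). Il7r was most like Slco3a1 (0.92), Itgal and Kbtbd11 (both 0.90), Il4ra most like H2-K1 (0.92), Icam1 (0.91) and Il10ra (0.90), and Il21r most like Gpr174 (0.86), Pmepa1 (0.85) and Zcchc18 (0.83). No member was among the leading genes of another. Among the members themselves r was highest for Il2ra with Il4ra (0.78) and Il4ra with Il21r (0.77), and Il7r had r between -0.35 (Il21r) and 0.45 (Il2rb).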

How the data were processed

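Sorted thymic cells binding the CD1d tetramer were measured in 3 droplet libraries. The authors aligned reads to mm10 with Cell Ranger (3.0.2 in the C57BL/6 table header, 7.0.0 in the other 2, another version in the paper) and deposited tables of raw, unnormalized UMI counts for called cells. Submitters' processing notes also name Seurat 4.0.2. Of 4613, 5986 and 5573 barcodes, 4434, 5970 and 5557 had over 200 and under 6000 genes with less than 10% of UMIs from mitochondrial genes, and were kept. All barcodes together, before this filter, held 60600408, 35041153 and 43383960 UMIs.

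The members and lists were chosen with earlier results of these data known. Counts were summed over the cells of a gate and divided by all UMIs of the 30406 shared genes (CPM), with exact Poisson intervals. Shares had exact Clopper-Pearson intervals and ratios the exact conditional binomial interval (95%). Gates needed 50 cells and took cells in the order B-like, pDC-like, myeloid-like (under 50 cells, not described), Foxp3+ (at least 1 Foxp3 UMI), Cd8a+Cd8b1+, cycling-like, NKT17-like and then NKT1-like, mixed or NKT2-like (at least 2 UMIs over both lists). No doublets were removed in the values given, and leaving out the 6% of cells with the highest Scrublet scores was an alternative. A V beta segment was called where it held 80% of a cell's V beta UMIs, with Trbv12-2 and Trbv13-2 counted together. All 7 members were described in every gate, and pathway genes by their counts past 1.5-fold. The ratio and its interval were tested on simulated Poisson counts, the model that the interval assumes. That test could not show the effect of UMIs that cluster in few cells. Python 3.11.15, numpy 2.4.6, scipy 1.17.1, pandas 2.3.3, scanpy 1.11.5 and matplotlib 3.10.9 were used. Alternatives changed thinning, marker minimums, cell filters, doublets, V beta, the total, centring, the averaging and the UMI minimum, and the exclusion of cells with regulatory T cell marker UMIs was added after values were seen, as were both splits of the pathway genes in NKT1-like cells and their counts without Il4 and Il13.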

Additional observations from a re-analysis of the deposited data

Results flagged for a closer look

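The ratio of BM + Spl over BM only for Il21r had opposite directions past 1.5-fold in 2 gates: it was 0.89 on the log2 scale in NKT17-like cells and -0.62 in cycling-like cells. In NKT17-like cells the iNKT share of called cells was 66.3% in BM only and 39.6% in BM + Spl, and in cycling-like cells the summed NKT1 markers were at 522 and 153 CPM. The part of these in the Il21r values was not tested. With 1 library per condition the difference between these gates was not tested.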

How the results depend on the processing

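Each count of members past 1.5-fold was recomputed under 11 alternatives. The NKT1-like count for BM + Spl over BM only was 3 in every one except the exclusion of cells with regulatory T cell marker UMIs, where it was 2 because Il7r was at -0.57, and the Il2ra ratio of that gate ranged from 1.497 to 1.97. That exclusion reversed Il2ra (-1.54) and Il2rb (-0.71) in pDC-like cells, so its count there was 0, and gave 1 in mixed and 3 in NKT17-like cells of BM only over C57BL/6. No other member ratio reversed, while in NKT1-like cells Il4 of the pathway list went from -0.81 to 0.18 under it. Counts that did not stay within 1.5 times of the main count moved as follows, and smaller moves are not listed. They are for BM + Spl over BM only where no other comparison is named. Thinning gave 0 in pDC-like and 1 in each of Cd8a+Cd8b1+, NKT17-like and mixed cells, 2 for NKT1-like over NKT2-like cells in C57BL/6, and for BM only over C57BL/6 3 in NKT17-like and 1 in mixed cells. Doubled marker minimums gave 2 in Cd8a+Cd8b1+, 0 in cycling-like and 1 in ungated cells, and 6 in ungated cells of BM only over C57BL/6. A limit of 5% mitochondrial UMIs gave 1 in each of mixed and NKT2-like cells of BM only over C57BL/6. In pDC-like cells the count was 1 with no cell filter and 0 without the highest Scrublet scores. Cells with an iNKT V beta gave 0 in cycling-like, 1 in NKT17-like and 1 in ungated cells, and 2 for NKT1-like over NKT2-like cells in C57BL/6. The mean of single-cell CPM gave 1 in each of pDC-like, Cd8a+Cd8b1+, NKT17-like and ungated cells, 2 in mixed cells, and 4 in mixed cells of BM only over C57BL/6. No UMI minimum gave 3 in B-like, 1 in Cd8a+Cd8b1+, 2 in cycling-like and 1 in NKT2-like cells, and 6 in cycling-like and 4 in mixed cells of BM only over C57BL/6. The cause of these moves was not tested. Taking mitochondrial and ribosomal genes out of the total, or centring on the median ratio, left 20 of 20 counts within 1.5 times. Too few cells were left for BM only over C57BL/6 in NKT17-like and ungated cells at 5% mitochondrial UMIs and with an iNKT V beta, in ungated cells without regulatory T cell UMIs, and for B-like, pDC-like and Cd8a+Cd8b1+ cells with an iNKT V beta. Depth limits Il15ra, Il4ra and, outside Foxp3+, NKT17-like and NKT1-like cells, Il2ra.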

Other observations

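The members were also read in NKT2-like cells with and without a UMI of Ccr7, a chemokine receptor of early iNKT precursors. Il7r was at 678 CPM in cells with a Ccr7 UMI and 839 CPM in cells without in C57BL/6, 369 and 427 CPM in BM only, and 373 and 379 CPM in BM + Spl. Il2rb was at 80.9 and 76.2 CPM, 118 and 100 CPM, and 77.1 and 76.97 CPM in the same order. The cells with and without a Ccr7 UMI numbered 859 and 641, 450 and 265, and 859 and 376.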
